A study of Mus musculus with 8 samples.

Results

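The genes described here are 29 genes of cholesterol synthesis and sterol transport, among 21824 genes measured in mouse small intestine. They were chosen by name: a probe belonged to the set if the gene name in the array files was one of the 29, and Sc4mol was found under its current symbol Msmo1. The set holds 19 enzymes of the pathway from acetyl-CoA to cholesterol, 5 regulators of SREBP and 5 genes of sterol transport. All 29 were measured, by 41 probes of which 40 passed the filter on dim signal, and the probe used for each gene was well above background on all 8 arrays.

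The tissue was small intestine, called jejunum in the study's design text, from female mice of strain BALB/cA Jcl aged 8 weeks, taken 4 h after carbon-ion irradiation. Each group had 2 samples and 1 array per sample. The unirradiated group received saline and 0 Gy, and the 3 other groups received 8 Gy after a 12 h pretreatment, given into the peritoneum, with saline, with FGF1 (a fibroblast growth factor) or with FGF1/CPP-C, a chimeric protein made from FGF1. No unirradiated group with FGF1 or FGF1/CPP-C is analysed here, so effects of these proteins without radiation cannot be told apart from effects on the irradiated gut. Nothing in the labels ties the 2 samples of a group to different animals, and p-values therefore speak of the spread between samples, which may be technical. The samples are whole tissue, and fewer cells of a type cannot be told apart from less RNA per cell.

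Cells make cholesterol from acetyl-CoA through mevalonate, isoprenoid diphosphates, squalene and lanosterol. Transcription of the enzymes is driven by SREBP proteins, chiefly SREBP-2, which are held in the endoplasmic reticulum by SCAP and the INSIG proteins while sterol is plentiful and are cut and sent to the nucleus when it is scarce. In the small intestine, NPC1L1 takes dietary sterol up from the lumen, and the paired half-transporters ABCG5 and ABCG8 pump it back. Their genes and those for ABCA1 and SREBP-1c are known targets of the oxysterol receptor LXR.

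SREBP binds a sterol response element in the promoters of synthesis genes, usually beside a CCAAT box bound by NF-Y. In RefSeq promoters of build GRCm38.p6, 25 of the 29 genes had an entry, and Fdft1, Fdps, Sqle and Stard4 had none. The letters TCACNCCAC, searched on both strands in the 250 bases before the start, occurred in 1.05% of 32851 promoters and, among 16 enzymes with an entry, in Hmgcs1. With the sixth letter free as well (TCACNNCAC, which includes the first motif) the share was 3.11% of all promoters, and 4 enzymes held it: Hmgcs1, Msmo1, Hsd17b7 and Dhcr7. The letters CCAAT were held by 15 of the 16 enzymes and by 33.8% of all promoters. GC boxes (GGGCGG) were held by 14 of the 16 enzymes and 32.7% of all promoters, and E-boxes (CACGTG) by 3 and 6.02%. For all these letters an enzyme counted if any of its annotated starts held them, while the percentages are of single promoters. The counts and percentages are therefore not in like units. The stretches of 100 bases around the match are printed because they are where SREBP would be looked for in this set, with TCACNNCAC and CCAAT in capitals on either strand. The Dhcr7 match lies before the second of its 3 annotated starts, downstream of the first, and is not printed. Hmgcs1 encodes HMG-CoA synthase, and the stretch lies at chr13:119690174-119690273 on the plus strand. Msmo1 encodes sterol C4-methyl oxidase, and the stretch lies at chr8:64733611-64733710 on the minus strand, where a CCAAT box and the element overlap. Hsd17b7 encodes a sterol C3-ketoreductase, and the stretch lies at chr1:169969263-169969362 on the minus strand.
Hmgcs1: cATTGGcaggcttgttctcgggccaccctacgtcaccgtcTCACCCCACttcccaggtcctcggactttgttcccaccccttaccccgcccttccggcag
Msmo1: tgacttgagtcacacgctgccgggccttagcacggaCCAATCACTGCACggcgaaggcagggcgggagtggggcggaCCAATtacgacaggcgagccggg
Hsd17b7: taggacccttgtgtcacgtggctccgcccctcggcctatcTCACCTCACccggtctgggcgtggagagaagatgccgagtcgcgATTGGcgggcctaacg
Hmgcs1 differed between the irradiated groups and the unirradiated one by -0.38 ± 0.11 (SE) on the log2 scale, Msmo1 by -0.18 ± 0.13 and Hsd17b7 by 0.00 ± 0.14, and none of the 3 passed the test. A match of letters is a description and not a bound site.

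Signals are given as the log2 of the array's processed signal minus that array's 75th percentile, so that 0 is the level of a rather bright spot, and values are listed as replicate 1 and replicate 2. Levels of different probes are not comparable with each other. Differences are log2 fold changes from a limma fit of the 4 group means to all 8 arrays, with their SE, and a gene was called at a Benjamini-Hochberg adjusted p under 0.05 over all genes. An exact permutation test of 2 against 2 arrays cannot go below p = 0.333, so a single gene is tested only through this fit.

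Some arrays stood apart before any comparison. Of 13 markers of stomach antrum and its mucous glands, 10 were measured. Their summed signal relative to the 75th percentile was 1150 and 812 in the unirradiated arrays, 434 and 1190 after 8 Gy with saline, 1020 and 436 with FGF1, and 0.921 and 0.676 with FGF1/CPP-C. Gkn3, a gastrokine, read 7.18 to 8.37 on the 6 other arrays and -1.66 and -1.82 with FGF1/CPP-C. Gkn2 read 6.47 to 7.55 in replicate 1 of the unirradiated and FGF1 groups and replicate 2 of the 8 Gy saline group, and at most -5.13 elsewhere. Pancreatic acinar markers summed to 599 in replicate 1 of the unirradiated group, to 139 in replicate 2 of the 8 Gy saline group and to 8.39 to 13.3 on the other arrays. Absorptive enterocyte markers were bright on every array (summed signal 1240 to 1890, with Sis left out where it had no value). Markers of mitosis, all 10 measured, summed to 13.6 and 15.4 without irradiation and to 6.47 to 9.02 on the 6 irradiated arrays.

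Carbon ions with saline pretreatment were compared with no irradiation to ask what irradiation alone did. The enzymes of cholesterol synthesis had slightly lower signals after 8 Gy, with 18 of 19 log2 fold changes below 0 and a median of -0.18, and no member passed the test. Over all genes tested the median was -0.05, 59.7% of the fold changes were below 0 and 0.409% of genes were called. Fdps, which encodes farnesyl diphosphate synthase, the enzyme at the branch to sterols and prenyl groups, had the smallest p of the set, at -0.61 ± 0.09 (adjusted p = 0.0869, limma). Both 8 Gy arrays were below both unirradiated arrays for 11 of the 18 enzymes with all values, against 23.2% of all genes. The median over the enzymes was -0.07 between the arrays of slide 1 and -0.38 between those of slide 2, so that the difference was larger in the second pair.

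**Figure D1:**
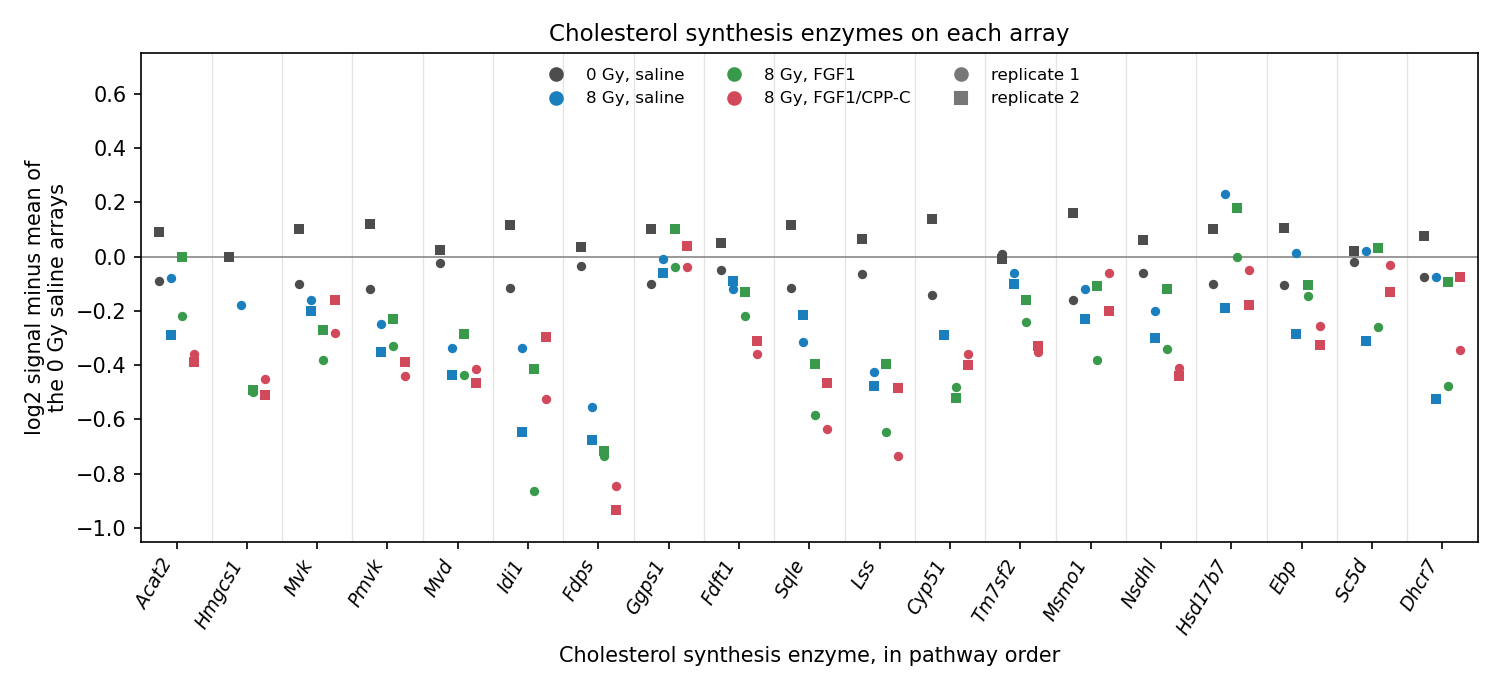
Signal of the 19 synthesis enzymes on each of the 8 arrays, as log2 signal minus the mean of the 0 Gy saline arrays (y axis), in pathway order (x axis); colours are groups and shapes are replicates. The irradiated arrays lie mostly below 0, furthest for Fdps, while those of Ggps1 and Hsd17b7 lie around it; Hmgcs1 lacks 2 arrays whose spots had an outlier mark.

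When the 3 irradiated groups were averaged and set against the unirradiated arrays, a comparison added after the values had been seen, Fdps was the only member that passed, and it was lower. In this comparison 2.43% of genes were called. Of the enzymes, 18 of 19 had a fold change below 0, with a median of -0.26 against -0.04 over all genes, and 12 reached an unadjusted p under 0.05 in that direction, against 2466 of 21761 genes. All 6 irradiated arrays were below both unirradiated arrays for 11 of the 18 enzymes with complete values, against 12.3% of all genes. The enzyme median was -0.22 on slide 1 and -0.34 on slide 2.

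**Figure D2:**
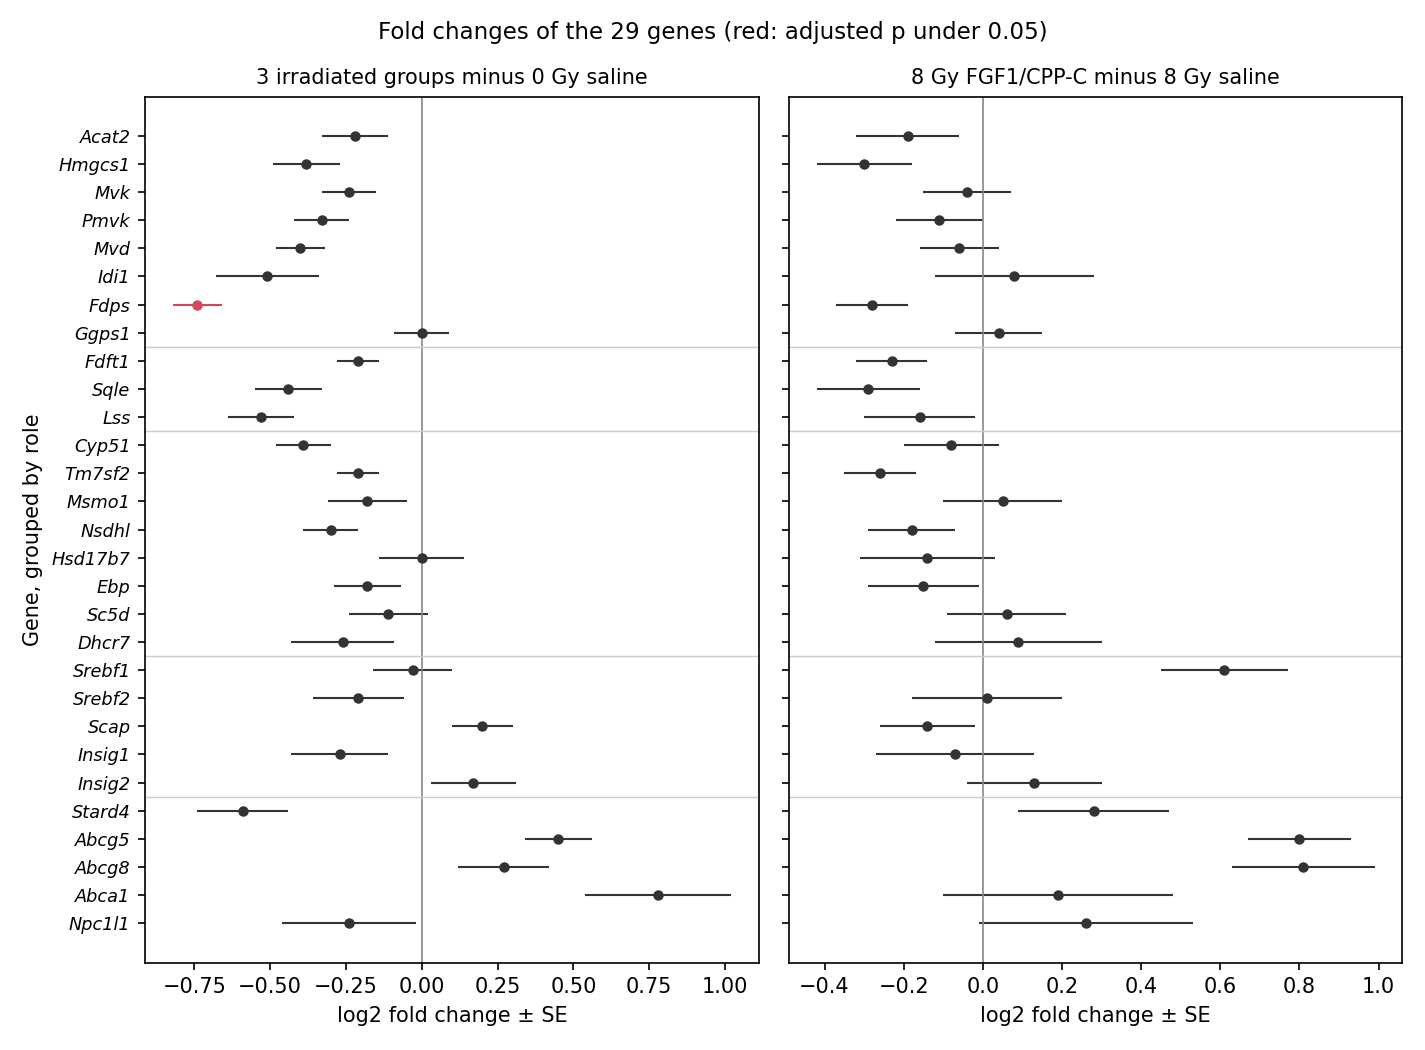
Log2 fold change with its SE (x axis) of each of the 29 genes (y axis, grouped by role from top to bottom as in the text), for the mean of the irradiated groups minus 0 Gy saline (left) and for 8 Gy FGF1/CPP-C minus 8 Gy saline (right). On the left the enzymes lie below 0 or at it and only Fdps is marked as past the test, and on the right Abcg5, Abcg8 and Srebf1 lie furthest above 0, none of them past it.

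Of the 8 enzymes from acetyl-CoA to the isoprenoids, Fdps carried the clearest difference. Its signal was 2.99 and 3.06 without irradiation, 2.47 and 2.35 after 8 Gy with saline, 2.29 and 2.31 with FGF1, and 2.18 and 2.09 with FGF1/CPP-C. The unirradiated pair was thus the highest, the FGF1/CPP-C pair the lowest, and replicates differed little. Fdps fell in the FGF1 group by 0.72 ± 0.09 (adjusted p = 0.0393, limma), to 60.6% of the unirradiated level. In the FGF1/CPP-C group it fell by 0.89 ± 0.09 (adjusted p = 0.0216, limma), to 54.1%. In these comparisons 0.895% and 2.02% of all genes were called, and both use the same unirradiated arrays. Averaged over the irradiated groups the fall was 0.74 ± 0.08 (adjusted p = 0.0151, limma), to 59.9%. Within slide 1 the averaged difference was -0.68 and within slide 2 -0.80. With the slide as a block, Fdps had an adjusted p of 0.0798 with FGF1, 0.0426 with FGF1/CPP-C and 0.0349 for the averaged groups (limma). Leaving out any 1 of the 6 arrays outside the 8 Gy saline group left 0 members called in these comparisons, as did dropping the 3 arrays with high Gkn2 and, for FGF1 and for FGF1/CPP-C, a fit of the 2 groups alone. The fold change kept its size over all alternatives, from -0.76 to -0.69 with FGF1 (adjusted p from 0.0150 to 0.386, limma) and from -0.95 to -0.84 with FGF1/CPP-C (adjusted p from 0.00741 to 0.229, limma). Calls over all genes with FGF1 went from 195 to 0 without either unirradiated array. Over the 29 members, 22 had a fold change below 0 against no irradiation both with FGF1 and with FGF1/CPP-C, with a median of -0.22 in each, against -0.05 and -0.02 over all genes. The array annotation places this single probe on chromosome 10 of mm9 (93242421 to 93242480) while RefSeq places the Fdps gene on chromosome 3, so signal from a near copy was not tested.

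Mvd encodes mevalonate diphosphate decarboxylase, the last step to isopentenyl diphosphate. Its signal was -0.26 and -0.21 without irradiation, -0.57 and -0.67 with saline, -0.67 and -0.52 with FGF1, and -0.65 and -0.70 with FGF1/CPP-C. All irradiated arrays were below both unirradiated ones, and the averaged difference was -0.40 ± 0.08 (adjusted p = 0.066, limma). Hmgcs1, the first committed step to HMG-CoA, read 3.78 on the unirradiated array with an accepted spot, 3.60 on that of the saline group, 3.28 and 3.29 with FGF1 and 3.33 and 3.27 with FGF1/CPP-C. The 2 spots with an outlier mark read 3.55 without irradiation and 3.32 with saline, so that with them the saline and unirradiated arrays overlapped. The averaged difference was -0.38 ± 0.11 without the marked spots (adjusted p = 0.182, limma) and -0.32 ± 0.11 with them. The second Hmgcs1 probe gave 0.46, but it read close to the floor (-6.95 to -6.17) and was well above background on 2 arrays only. Of the remaining enzymes of this stretch, Idi1 (isopentenyl diphosphate isomerase) differed by -0.51 ± 0.17, Pmvk by -0.33 ± 0.09, Mvk by -0.24 ± 0.09 (both kinases of mevalonate and its phosphate), and Acat2 by -0.22 ± 0.11. Ggps1, which leads from farnesyl diphosphate to geranylgeranyl diphosphate and away from sterols, differed by 0.00 ± 0.09. Its second probe gave -0.07, and the other, which the array annotation places on chromosome 14 while the gene lies on chromosome 13, gave -0.02.

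The 3 enzymes from farnesyl diphosphate to lanosterol had lower values in every irradiated group, without a call. Sqle, squalene epoxidase, a rate-limiting step after mevalonate, read 1.40 and 1.63 without irradiation, 1.20 and 1.30 with saline, 0.93 and 1.12 with FGF1, and 0.88 and 1.05 with FGF1/CPP-C. Lss, lanosterol synthase, read -2.09 and -1.96 without irradiation, -2.45 and -2.50 with saline, -2.67 and -2.42 with FGF1, and -2.76 and -2.51 with FGF1/CPP-C. Fdft1, squalene synthase, read 0.18 and 0.28, then 0.11 and 0.14, 0.01 and 0.10, and -0.13 and -0.08 in the same order of groups. For each of these genes no irradiated array reached the lower unirradiated one. Averaged over the irradiated groups the differences were -0.44 ± 0.11 for Sqle (adjusted p = 0.0946, limma), -0.53 ± 0.11 for Lss (adjusted p = 0.0721, limma) and -0.21 ± 0.07 for Fdft1 (adjusted p = 0.201, limma). Fdft1's probe is listed far from the gene's other probe on chromosome 14 of mm9 (starts 19364899 and 63764562), and that other probe was too dim to use. The Fdft1 values thus rest on the probe at 19364899, and signal from a near copy was not tested.

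From lanosterol to cholesterol the differences were smaller. Cyp51, lanosterol demethylase, read -2.76 and -2.48 without irradiation, -2.91 and -2.91 with saline, -3.10 and -3.14 with FGF1, and -2.98 and -3.02 with FGF1/CPP-C. Nsdhl, a sterol C4-decarboxylating dehydrogenase, read -0.87 and -0.75, then -1.01 and -1.11, -1.15 and -0.93, and -1.22 and -1.25. Tm7sf2, a sterol C14-reductase, read 2.26 and 2.24, then 2.19 and 2.15, 2.01 and 2.09, and 1.90 and 1.92. In all 3 the irradiated arrays lay below both unirradiated ones, and the Tm7sf2 arrays with FGF1/CPP-C were the lowest. The averaged differences were -0.39 ± 0.09 for Cyp51 (adjusted p = 0.0958, limma), -0.30 ± 0.09 for Nsdhl and -0.21 ± 0.07 for Tm7sf2, with none called. The second probe of Tm7sf2 gave -0.21 and that of Nsdhl -0.17. For Ebp, Sc5d, Dhcr7, Msmo1 and Hsd17b7, the remaining enzymes of this stretch, irradiated and unirradiated arrays overlapped, with averaged differences from -0.26 (Dhcr7) to 0.00 (Hsd17b7).

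Markers of mitosis, crypt stem cells and immune cells were read on the same arrays. Every irradiated array was below both unirradiated ones for 10 of 10 markers of mitosis. This held for 1 of 8 crypt stem cell markers and 1 of 10 immune cell markers. In the averaged comparison all 10 markers of mitosis had fold changes below 0 and 9 of them fell. All 8 crypt stem cell markers were below 0 there (median -0.34) and so were 9 of 10 immune cell markers (median -0.18), with none of them called. Absorptive enterocyte markers leaned the other way in that comparison, with 8 of 12 above 0 and 4 below (median 0.15, none called). With saline alone all 10 immune markers were below 0 (median -0.41), and their summed signal was 34.3 and 24.0 against 44.6 and 43.3 without irradiation. With FGF1/CPP-C plus 8 Gy, 9 of 10 immune markers were above 0 against no irradiation (median 0.18). All 10 markers of mitosis were below 0 there (median -0.89). Against irradiated saline and against FGF1, all 10 markers of mitosis were above 0 with FGF1/CPP-C (medians 0.21 and 0.39, none called). The part of these cell types in the enzyme values was not tested.

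The 5 regulators of SREBP showed no common direction, and none passed in any of the 7 comparisons. Srebf2, which encodes SREBP-2, read -0.49 and -0.23 without irradiation, -0.48 and -0.72 with saline, -0.63 and -0.42 with FGF1, and -0.79 and -0.38 with FGF1/CPP-C, and all groups overlapped. Insig1, itself an SREBP target, read -0.23 and 0.28, then -0.09 and -0.17, -0.58 and -0.22, and -0.20 and -0.20, so that the unirradiated pair spanned most other arrays. Scap, the escort of SREBP, read 2.82 and 2.68, then 2.89 and 3.12, 3.04 and 2.91, and 2.85 and 2.90. Every irradiated Scap array was above both unirradiated ones, by 0.20 ± 0.10 on average (adjusted p = 0.307, limma). Insig2 overlapped between irradiated and unirradiated arrays (0.17 ± 0.14), and its second probe gave -0.10.

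Srebf1, which encodes SREBP-1a and the LXR-driven SREBP-1c, read -1.58 and -1.33 without irradiation, -1.74 and -1.66 with saline, -1.84 and -1.49 with FGF1, and -1.01 and -1.18 with FGF1/CPP-C. Both FGF1/CPP-C arrays were above the other 6. The difference from 8 Gy with saline was 0.61 ± 0.16 (adjusted p = 0.325, limma) and that from FGF1 was 0.57 ± 0.16 (adjusted p = 0.391, limma), neither past the threshold.

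**Figure D3:**
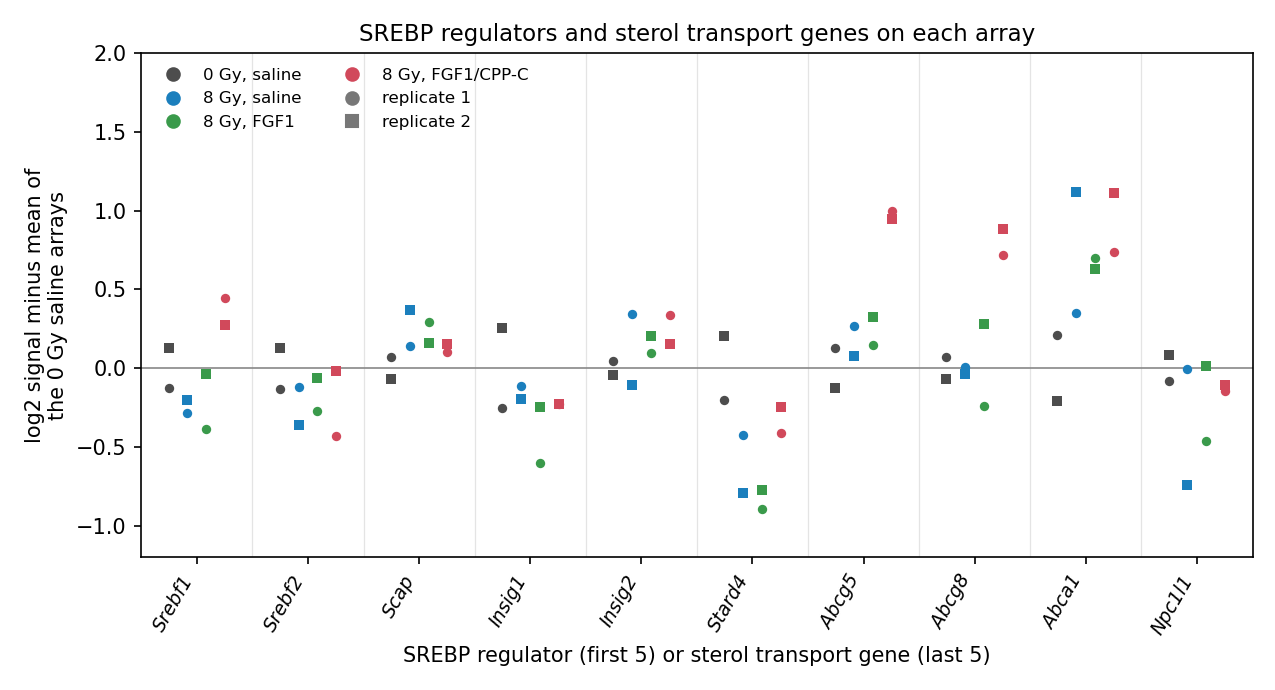
Signal of the SREBP regulators and sterol transport genes on each array, as log2 signal minus the mean of the 0 Gy saline arrays (y axis), for each gene (x axis); colours are groups and shapes are replicates. Both FGF1/CPP-C arrays lie above the other 6 for Abcg5, Abcg8 and Srebf1, and Stard4 is lowest with saline and FGF1 after 8 Gy.

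Among the sterol transport genes, Abcg5 rose with FGF1/CPP-C plus 8 Gy against no irradiation, and it was the only member called higher in any comparison. It read 4.86 and 4.61 without irradiation, 5.00 and 4.81 with saline, 4.88 and 5.06 with FGF1, and 5.73 and 5.68 with FGF1/CPP-C. The 6 other arrays lay close together and both FGF1/CPP-C arrays stood above them. Against the unirradiated arrays the difference was 0.96 ± 0.13, or 1.95-fold (adjusted p = 0.0334, limma). With the slide as a block the adjusted p was 0.0576 (limma), past the threshold no longer. This call was also lost without any 1 of the 6 arrays outside the 8 Gy saline group, without the 3 arrays with high Gkn2, with the 2 groups alone and with dim probes left in (fold change from 0.84 to 1.09 and adjusted p from 0.0167 to 0.229 over all alternatives, limma). Against irradiated saline it was 0.80 ± 0.13, or 1.74-fold (adjusted p = 0.203, limma), and against FGF1 0.73 ± 0.13, or 1.66-fold (adjusted p = 0.241, limma). Neither of the latter passed, in comparisons with few calls of any kind (0.00918% and 0.00917% of genes).

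Abcg8, the partner of Abcg5, read -0.66 and -0.80 without irradiation, -0.72 and -0.77 with saline, -0.97 and -0.45 with FGF1, and -0.01 and 0.15 with FGF1/CPP-C. Here too both FGF1/CPP-C arrays were above all others. The difference was 0.80 ± 0.18 from the unirradiated arrays (adjusted p = 0.0879, limma), 0.81 ± 0.18 from irradiated saline (adjusted p = 0.293, limma) and 0.78 ± 0.18 from FGF1 (adjusted p = 0.312, limma). These 3 comparisons share the FGF1/CPP-C arrays.

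The pair is transcribed head to head from chromosome 17. Between the annotated start of Abcg5 on the minus strand and the nearer start of Abcg8 on the plus strand lie 109 bases, at chr17:84683012-84683120 of GRCm38.p6. They are shown, on the plus strand, because this stretch lies before the starts of both genes that were higher with FGF1/CPP-C; it was picked with the values in view.
Abcg5-Abcg8: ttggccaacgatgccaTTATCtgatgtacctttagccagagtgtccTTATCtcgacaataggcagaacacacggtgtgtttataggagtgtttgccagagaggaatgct
Capitals mark TTATC, the reverse complement of GATAA, the core letters of sites for GATA factors, at positions 17 and 47 from the left end. GATAA on either strand was found before the start in 22.6% of all 32851 promoters.

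Markers of gut segments and cell types also differed on the FGF1/CPP-C arrays. Tff2, a trefoil peptide of antral and duodenal mucous glands, read between 8.15 and 8.99 on the 6 other arrays and -6.02 and -6.95 with FGF1/CPP-C. Tff2 and Gkn3 were the 2 genes called between FGF1/CPP-C and irradiated saline. Of 8 markers of the proximal small intestine, 5 had a fold change below 0 and 3 above 0 against irradiated saline (median -0.24). Gata4 was among the higher ones (2.84 and 2.86 with FGF1/CPP-C, 2.56 and 2.46 with saline, and 2.87 on 1 FGF1 array). S100g (a calcium-binding protein) read 6.88 and 6.74 with FGF1/CPP-C and 7.41 to 7.85 elsewhere, and Trpv6 (a calcium channel) 1.95 and 1.78 against 3.11 to 4.08. Both fell with FGF1/CPP-C against the unirradiated arrays. The summed signal of these markers was 442 and 420 with FGF1/CPP-C, 518 and 599 without irradiation, 514 and 463 with saline and 513 and 523 with FGF1. Onecut2 had no value on replicate 1 of the saline group and is missing from that sum. Absorptive enterocyte markers summed to 1890 and 1780 with FGF1/CPP-C and to 1240 to 1610 on the other arrays. Sis had no value on both unirradiated arrays and on replicate 1 of the saline group, so those sums leave it out. Of these enterocyte markers, 12 of 13 had a fold change above 0 against irradiated saline (median 0.34). All 10 immune cell markers were also above 0 against irradiated saline (median 0.66, none called), with a summed signal of 53.3 and 45.5 with FGF1/CPP-C against 34.3 and 24.0 with saline. Of 7 mesenteric adipocyte markers 5 were below 0 (median -1.33, none called). Lct, lactase, read 7.13 and 7.11 with FGF1/CPP-C and 5.90 to 6.58 elsewhere, and Anpep, an aminopeptidase, 7.55 and 7.48 against 6.06 to 7.09. The part of gut segment, enterocytes, immune cells and adipocytes in the Abcg5, Abcg8 and Srebf1 values was not tested. The markers named singly were picked from their lists after the values were seen.

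**Figure D4:**
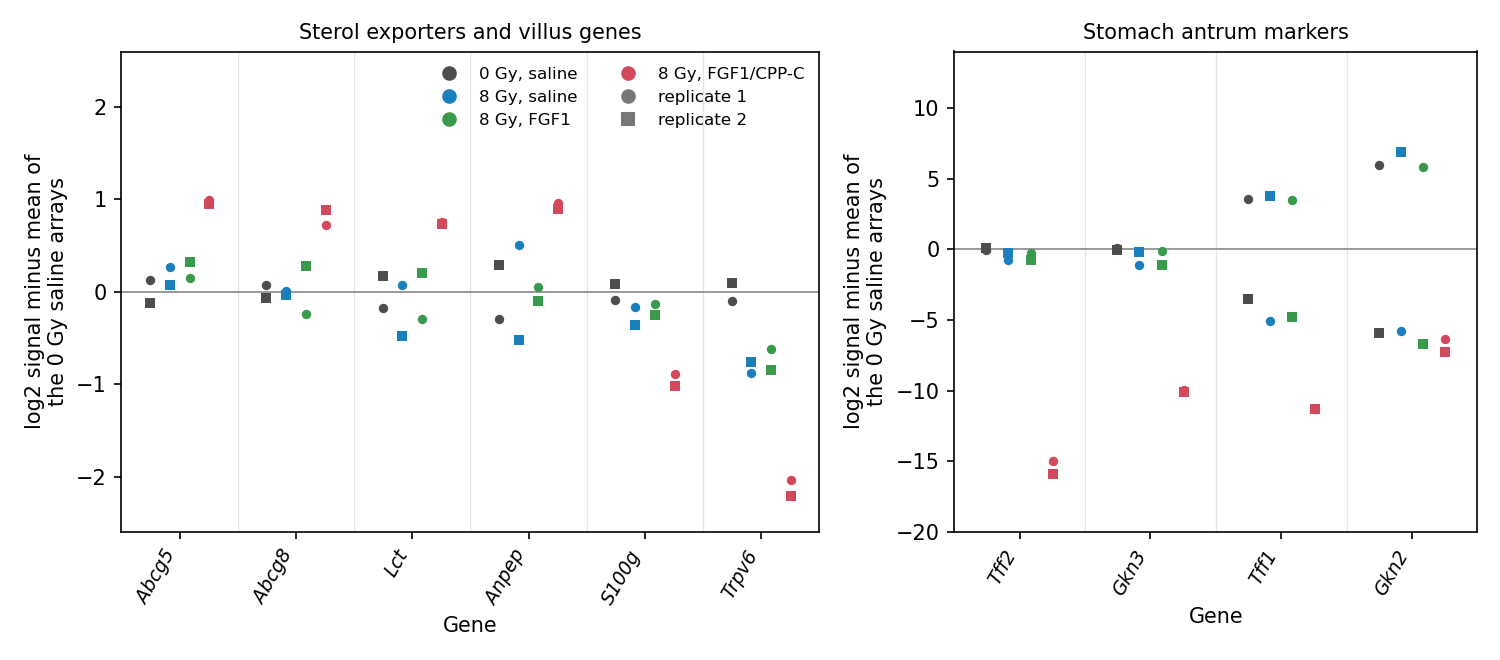
Log2 signal minus the mean of the 0 Gy saline arrays (y axis) of Abcg5 and Abcg8 beside enterocyte and proximal intestine markers (left) and of stomach antrum markers (right), for each gene (x axis); colours are groups, shapes are replicates, and the y axes differ. The FGF1/CPP-C arrays stand apart from the other 6 in the same genes: up in Abcg5, Abcg8, Lct and Anpep, down in S100g, Trpv6, Tff2 and Gkn3; both FGF1/CPP-C points of Tff1 lie at the floor of the scale and coincide.

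Stard4, a carrier of cholesterol between membranes and an SREBP target, read 1.32 and 1.73 without irradiation, 1.10 and 0.73 with saline, 0.63 and 0.75 with FGF1, and 1.11 and 1.28 with FGF1/CPP-C. All irradiated arrays were below both unirradiated ones, and the FGF1/CPP-C pair was the least so. The averaged difference was -0.59 ± 0.15 (adjusted p = 0.108, limma), with -0.83 ± 0.19 for FGF1 against no irradiation (adjusted p = 0.114, limma). The difference between FGF1/CPP-C and FGF1 was 0.50 ± 0.19 (adjusted p = 0.521, limma). The second probe gave -0.52 and 0.55 for the averaged and last comparisons.

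Abca1, the cholesterol efflux pump of the basolateral membrane, read -2.86 and -3.28 without irradiation, -2.72 and -1.95 with saline, -2.37 and -2.44 with FGF1, and -2.33 and -1.96 with FGF1/CPP-C. Each irradiated array was above both unirradiated ones, by 0.78 ± 0.24 on average (adjusted p = 0.146, limma), and by 0.38 within slide 1 and 1.17 within slide 2. Npc1l1, the sterol uptake protein, read 2.88 and 3.05 without irradiation, 2.96 and 2.22 with saline, 2.50 and 2.98 with FGF1, and 2.82 and 2.86 with FGF1/CPP-C. The irradiated arrays of Npc1l1 spread more than the groups differed (-0.24 ± 0.22).

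FGF1 was compared with saline in irradiated intestine to ask what the native factor added. Of the members, 14 of 29 had a fold change below 0, with a median of 0.01, the same as over all genes. The 2 slides went opposite ways. The member median was -0.19 within slide 1 and 0.15 within slide 2, against -0.02 and 0.07 over all genes. No member was called, and neither was any gene (0% of 21780 by limma, with 219 genes higher and 162 lower at an unadjusted p under 0.05). FGF1/CPP-C against saline gave a member median of -0.06 against 0.04 over all genes. Its synthesis enzymes had 14 of 19 fold changes below 0 (median -0.14), while all 5 transport genes were above 0 (median 0.28). Without replicate 1 of the saline group the enzyme median was -0.04 (12 of 18 below 0), against 0.1 over all genes. Without replicate 2 of that group the enzyme median was -0.18 (18 of 19), against -0.02 over all genes. The median over all genes thus moved the same way as that of the enzymes. Fdps, at -0.28 ± 0.09, Tm7sf2, at -0.26 ± 0.09, and Fdft1, at -0.23 ± 0.09, had an unadjusted p under 0.05 there, with adjusted p = 0.377, 0.370 and 0.412 in limma. Both FGF1/CPP-C arrays were above both saline arrays for 4 of 28 members (Abcg5, Abcg8, Srebf1 and Stard4), no more than the 25.2% of all genes. They were below both saline arrays for 10 of 28 members, 9 of them enzymes, against 19.2% of all genes. FGF1/CPP-C against FGF1 gave a member median of 0.02, equal to that over all genes, and no call among the members. A test across all 4 groups called 0.395% of genes and no member, with Fdps (adjusted p = 0.0609) and Abcg5 (adjusted p = 0.0982) closest in limma.

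Other genes under SREBP and LXR were read beside the set. Of 15 genes of the fatty acid arm of SREBP, 14 had a fold change below 0 with FGF1/CPP-C plus 8 Gy against no irradiation (median -0.47 against -0.02 over all genes), and 3 fell while none rose. These were Fads1, the delta-5 fatty acid desaturase, at -1.17 ± 0.14 (adjusted p = 0.0252, limma), Me1, malic enzyme, at -0.77 ± 0.12, and Acaca, acetyl-CoA carboxylase, at -0.74 ± 0.11 (both adjusted p = 0.0419, limma). Fads1 read -0.16 and -0.27 without irradiation, -1.14 and -1.12 with saline, -0.97 and -1.35 with FGF1 and -1.35 and -1.43 with FGF1/CPP-C, so its irradiated arrays were all far below the unirradiated pair. Acaca also fell with FGF1 against no irradiation (-0.79 ± 0.11, adjusted p = 0.05, limma), under the threshold only before rounding. No gene of this list was called with saline, where Fads1 was at -0.92 ± 0.14 (adjusted p = 0.0868, limma). In the averaged comparison Fads1, Acaca and Fads2, the delta-6 desaturase, fell.

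Of 21 other genes of sterol handling, Cyp27a1, sterol 27-hydroxylase, which makes an oxysterol ligand of LXR, was the only one called. It read -3.59 and -3.65 without irradiation, -2.35 and -2.47 with saline, -2.36 and -2.19 with FGF1, and -1.35 and -1.70 with FGF1/CPP-C. The groups did not overlap between unirradiated and irradiated arrays, and the FGF1/CPP-C pair was the highest. Cyp27a1 rose with saline by 1.21 ± 0.14 (adjusted p = 0.0437, limma), with FGF1 by 1.35 ± 0.14 (adjusted p = 0.0281, limma) and with FGF1/CPP-C by 2.10 ± 0.14 (adjusted p = 0.00723, limma), all against the same unirradiated arrays. Between FGF1/CPP-C and saline it differed by 0.88 ± 0.14 (adjusted p = 0.197, limma). In a fit of the saline and unirradiated groups alone, 0 genes were called, so the call of Cyp27a1 with saline was lost there. Its other calls, and those of the fatty acid genes, were not followed through the alternatives. Of 10 LXR genes, 4 are members described above and 1 (Scd1) is also in the fatty acid list. With FGF1/CPP-C against no irradiation, 7 of the 10 had a fold change above 0 (median 0.27 against -0.02 over all genes). The 4 members (Abcg5, Abcg8, Abca1 and Srebf1) were all among these 7, so the count partly repeats values given above. Abcg5 alone was called.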

How the data were processed

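Of the 8 arrays, of the Agilent 1-colour kind, 4 lay on each of 2 slides, with replicate 1 of every group on slide 1 and replicate 2 on slide 2. Agilent Feature Extraction 9.5.3.1 made the values, per the file headers, and the deposited processed signal is a linear intensity with background subtracted. Probe coordinates are those of mm9. The series matrix repeats the same deposited intensity. Here, log2 signals were set relative to the 75th percentile of each array (1735 to 2165 in intensity, with 68.2% to 72.5% of spots well above background) and floored at -6.95. Control and outlier-marked spots were dropped and spots of a probe averaged. A probe was kept when a group had it well above background on both its arrays. Names came from RefSeq of GRCm38.p6 by accession (28330 probes), then by symbol (2204), or else from the array files (8895). A gene took its brightest kept probe.

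limma 3.58.1 in R 4.3.3 (package data.table, version 1.17.8) fitted the means of 4 groups, leaving 4 residual degrees of freedom, with p-values adjusted over all genes of a comparison by Benjamini-Hochberg. The script was tested on simulated data. Precision is low with 2 arrays in each group. Other settings are given in the closing section.

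The members and lists were chosen with earlier results of these data known. Values on every array are given for members called in any comparison, for the 2 members per role with the smallest p in 8 Gy saline against 0 Gy and in FGF1/CPP-C against 8 Gy saline, and for Hmgcs1, Sqle, Srebf1, Srebf2, Insig1, Npc1l1 and Abca1. From other lists the genes called (at most 4), or else the 2 of smallest p, could be named. Promoters holding a sterol element are printed for Hmgcs1, Msmo1 and Hsd17b7, and size of fold change did not decide this. Dhcr7, left out for the place of its match, was at -0.30 in 8 Gy saline against 0 Gy. Hmgcs1 was at -0.18 there, Msmo1 at -0.17 and Hsd17b7 at 0.03.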

Additional observations from a re-analysis of the deposited data

How the results depend on the processing

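Under 19 alternatives, 3601 fold changes of members stayed within the replicate spread or kept their call, 179 uncalled ones moved further, 6 became called, 34 lost a call, and no called value reversed. For FGF1 against no irradiation (1 member) and FGF1/CPP-C against no irradiation (2 members), 0 were called in a fit of the 2 groups alone and without the 3 arrays with high antrum transcripts, which leaves 1 residual degree of freedom. There Fdps was at -0.92 ± 0.11 and Abcg5 at 1.09 ± 0.10 with FGF1/CPP-C against no irradiation (both adjusted p = 0.229, limma), and the averaged comparison also went from 1 to 0. With dim probes left in, the 2 members of the second comparison were Fdps and Tm7sf2 in place of Fdps and Abcg5. With the replicate block, which is also a block for the slide, the first count was 0 and the second 1 (Fdps). Deviations from group means over genes correlated between same-numbered samples with r from -0.52 to 0.53, so that the numbers mark a shared slide but no pairing of samples was seen. Leaving out 1 array gave 0 to 1, 0 to 2 and 0 to 1 members in the FGF1, FGF1/CPP-C and averaged comparisons against no irradiation. Background correction by normexp, and limma with trend and robust options, called 1 member (Fdps) with saline against no irradiation and 2 in the averaged comparison, as did the series matrix in the latter. Across the 4 groups, normexp and quantile normalisation called 1 member and trend and robust 2. Member medians without 1 array ranged from -0.31 to -0.10 for saline, -0.34 to -0.11 for FGF1, -0.36 to -0.13 for FGF1/CPP-C and -0.34 to -0.14 for the averaged groups, all against no irradiation, from -0.13 to 0.07 for FGF1 against saline, from -0.11 to -0.01 for FGF1/CPP-C against saline and from -0.11 to 0.04 for FGF1/CPP-C against FGF1. Without the 3 antrum-high arrays they were -0.36 for FGF1/CPP-C against no irradiation and -0.11 against FGF1. Beyond fits with fewer arrays, the cause of these shifts was not tested. With 2 arrays per group, differences of the size seen for most enzymes were not called.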
